A study of Mus musculus with 67 samples.

Results

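The heart transcriptomes of hypertensive BPH/2J mice were compared with those of hypotensive BPL/1J mice. The members were the arrays whose titles name the heart of either strain, 5 BPH and 5 BPL of 67 arrays in the series. All the mice were males of 12 weeks with no treatment or engineered allele named in the labels, and their systolic pressure was given as 142 ± 5 mmHg in BPH and 69 ± 1.7 mmHg in BPL, with the kind of error not stated. Hearts of the normotensive BPN/3J strain (5 arrays, 94 ± 6 mmHg) entered the fit and are given beside the pair. The design text speaks of 5 mice per strain but the labels do not tie an array to an animal, so the p-values measure the spread between these arrays, part of which may be technical.

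Blood pressure strains of this kind were made by selecting mice from a mixed base for high or low pressure and then inbreeding them, so a pair of strains differs at many loci besides those that set pressure. In the heart, a sustained pressure load is known to raise natriuretic peptides, fetal contractile isoforms and stretch-responsive genes in muscle cells, and to draw fuel use away from fatty acids. Sympathetic nerves, local angiotensin and the cyclic GMP pathways set the load and the response of heart muscle to it.

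Each array gave an RMA-normalised intensity for 38385 probe sets, of which 24478 carried 1 gene symbol, for 19148 named genes. Levels below are log2 intensities, and differences are BPH minus BPL on that scale, where 1 is 2-fold. A probe set was called where limma's Benjamini-Hochberg adjusted p over all probe sets was under 0.05. Levels of different probe sets were not compared. The heart label held in the BPH and BPL libraries: Myh6, Actc1, Tnnt2, Tnni3, Myl2 and Ryr2, which make the contractile apparatus and the calcium release channel of heart muscle, lay at or above the 99.4th percentile of level, and none was called between the strains. Arrays of 1 strain correlated at 0.993 to 0.997 and arrays of different strains at 0.988 to 0.993. The first principal component of the 15 heart arrays held 25% of the variance and placed the 5 BPH arrays at one end, the 5 BPL arrays at the other and the BPN arrays between them. In BPL array 2 the atrial markers were low as a group (mean deviation -1.05 against 0.10 to 0.28 in the other 4), and in BPH array 5 the lymphocyte markers were high (1.27 against -0.19 to -0.05). The list medians and Nppa, which rest on them, are given with and without them.

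Of 38385 probe sets, 3288 were called (8.57%), 1763 higher in BPH (4.59%) and 1525 lower (3.97%). Most differences were small, with a median size of 0.38 among the called probe sets, beside a median SD within a strain of 0.12. At least 2-fold separated 299 called probe sets (0.779%), 162 of them higher in BPH; 57 passed 4-fold, 22 passed 8-fold and 7 passed 16-fold. The 5 BPH and the 5 BPL arrays did not overlap at 3222 probe sets (8.39%), 2524 of which were called. By the probe set of highest mean for each named gene, 1999 genes were called (10.4%), 1129 higher (5.9%) and 870 lower (4.54%). Most genes of the lists below lie above the median level of all probe sets, where 15.4% of 11194 named genes were called, 9% higher and 6.44% lower, and their shares are to be read against that. The count depended on how the spread was estimated, with 1832 probe sets called when all 67 arrays of 4 tissues shared one estimate.

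The gene highest in BPH by fold was Gdpd3, a lysophospholipase D that makes lysophosphatidic acid. Its level in BPH replicates 1 to 5 was 10.93, 10.85, 11.27, 11.12 and 10.88, and in BPL replicates 5.48, 5.12, 5.45, 5.09 and 5.28. All 5 BPH hearts stood far above the BPL hearts, a 52.9-fold difference (5.72 ± 0.10 SE, adjusted p = 3.31e-17), and BPN hearts (5.23 ± 0.15 SD, n = 5) lay with BPL. Thumpd1, a partner of the enzyme that acetylates transfer RNA, followed with 7.71 ± 0.07 in BPH against 3.39 ± 0.10 in BPL (SD, n = 5 each; difference 4.32 ± 0.06 SE, adjusted p = 1.60e-18). Tafa2, which encodes a secreted chemokine-like protein best known from the brain, read 6.51, 6.51, 6.69, 6.32 and 6.26 in BPH and 2.24, 2.49, 2.43, 2.31 and 2.38 in BPL. The BPL values lay at the bottom of the array's range, as did those of BPN (2.47 ± 0.10 SD), and the difference was 4.09 ± 0.08 SE (adjusted p = 1.91e-16). Hsd17b7, a ketosteroid reductase of cholesterol synthesis, was 9.09 ± 0.14 in BPH, 5.69 ± 0.14 in BPL and 5.83 ± 0.07 in BPN (SD, n = 5 each; BPH minus BPL 3.40 ± 0.08 SE, adjusted p = 1.42e-15).

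The other leading genes on the BPH side differed by 2.12 or more. H2-Ea, an MHC class II alpha chain, measured 7.99 ± 0.31 in BPH and 5.36 ± 0.06 in BPL, and 9.54 ± 0.42 in BPN (SD, n = 5 each; 2.63 ± 0.17 SE, adjusted p = 4.16e-09). Mgl2, a lectin of macrophages and dendritic cells, was 2.24 ± 0.11 SE higher (adjusted p = 1.04e-10). Ifi202b, an interferon-inducible DNA-binding protein, gave 7.30, 7.08, 7.38, 7.12 and 7.20 in BPH and 3.77, 2.68, 3.30, 2.66 and 3.20 in BPL. Here the BPN hearts (7.42 ± 0.27 SD, n = 5) lay with BPH. Snap91, a clathrin assembly protein of synapses, was 6.75 ± 0.03 in BPH against 4.15 ± 0.21 in BPL (SD, n = 5 each), and the kinesin heavy chain Kif5c was higher by 2.17 ± 0.08 SE. The other probe sets of Snap91 and Kif5c differed by 0.12 and 0.06, not called. Fgf7, a growth factor secreted by mesenchymal cells, was higher by 2.13 ± 0.16 SE (adjusted p = 5.55e-08). Atp5g1, 1 of the genes for the c subunit of mitochondrial ATP synthase, was higher by 2.31 ± 0.12 SE on 1 of its 2 probe sets. The remaining leading genes on this side were Spon1, Mindy4b-ps, Plppr1 and Zmynd8, with differences of 3.28, 2.72, 2.20 and 2.12. All 15 were called with no overlap of the arrays, as the rule that named them required.

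On the other side, Fmn1, a formin that nucleates actin filaments, stood out. Its BPL values were 7.20, 7.17, 7.27, 7.47 and 7.24, while BPH gave 2.67, 2.81, 2.56, 2.85 and 2.94 and BPN 2.80 ± 0.06 (SD, n = 5). The BPL hearts alone were high, with a difference of -4.51 ± 0.07 SE (adjusted p = 2.08e-17), against levels in both other strains at the bottom of the array's range. Ptprn2, a protein of dense-core secretory vesicles, showed the same order, 3.35 ± 0.26 in BPH, 3.43 ± 0.09 in BPN and 6.69 ± 0.31 in BPL (SD, n = 5 each). BPH minus BPL was -3.34 ± 0.13 SE (adjusted p = 7.08e-12), and the gene's other probe sets differed by -0.09 and -0.005, not called. The opposite order held for Atg4a, the autophagy protease that processes Atg8 proteins, at 5.41 ± 0.14 in BPH and 8.33 in both BPL (SD 0.05) and BPN (SD 0.07); BPH minus BPL was -2.92 ± 0.07 SE. Bcat2, the mitochondrial branched-chain amino acid transaminase, read 8.46, 8.44, 8.47, 8.23 and 8.43 in BPH against 10.43 to 10.64 in BPL (-2.13 ± 0.06 SE, adjusted p = 5.90e-14). Abca4, a lipid flippase known from the retina, was 6.31 ± 0.26 in BPH and 8.74 ± 0.14 in BPL (SD, n = 5 each; -2.44 ± 0.10 SE, adjusted p = 1.66e-11).

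The other leading genes on the BPL side included Ddc, the decarboxylase that makes dopamine, and Cxcl14, a chemokine. Ddc differed by -1.91 ± 0.14 SE on 1 probe set and by -1.53 ± 0.09 SE on the other (adjusted p = 4.52e-08 and 1.00e-09), with no overlap of the arrays on either. Cxcl14 differed by -2.19 ± 0.17 SE. Gbp2b and Ifi27l2a, both induced by interferon, differed by -2.64 ± 0.16 SE and -1.88 ± 0.34 SE. The BPH values of Ifi27l2a were spread widely, as the plot of leading genes shows, and its call ended with the adipocyte level described below as a covariate (adjusted p = 0.271). Plet1os, Smim14, Slc6a16, Efcab2, H4c9 and Rbm45 differed by -3.63, -3.17, -3.09, -2.35, -2.06 and -1.85.

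**Figure D1:**
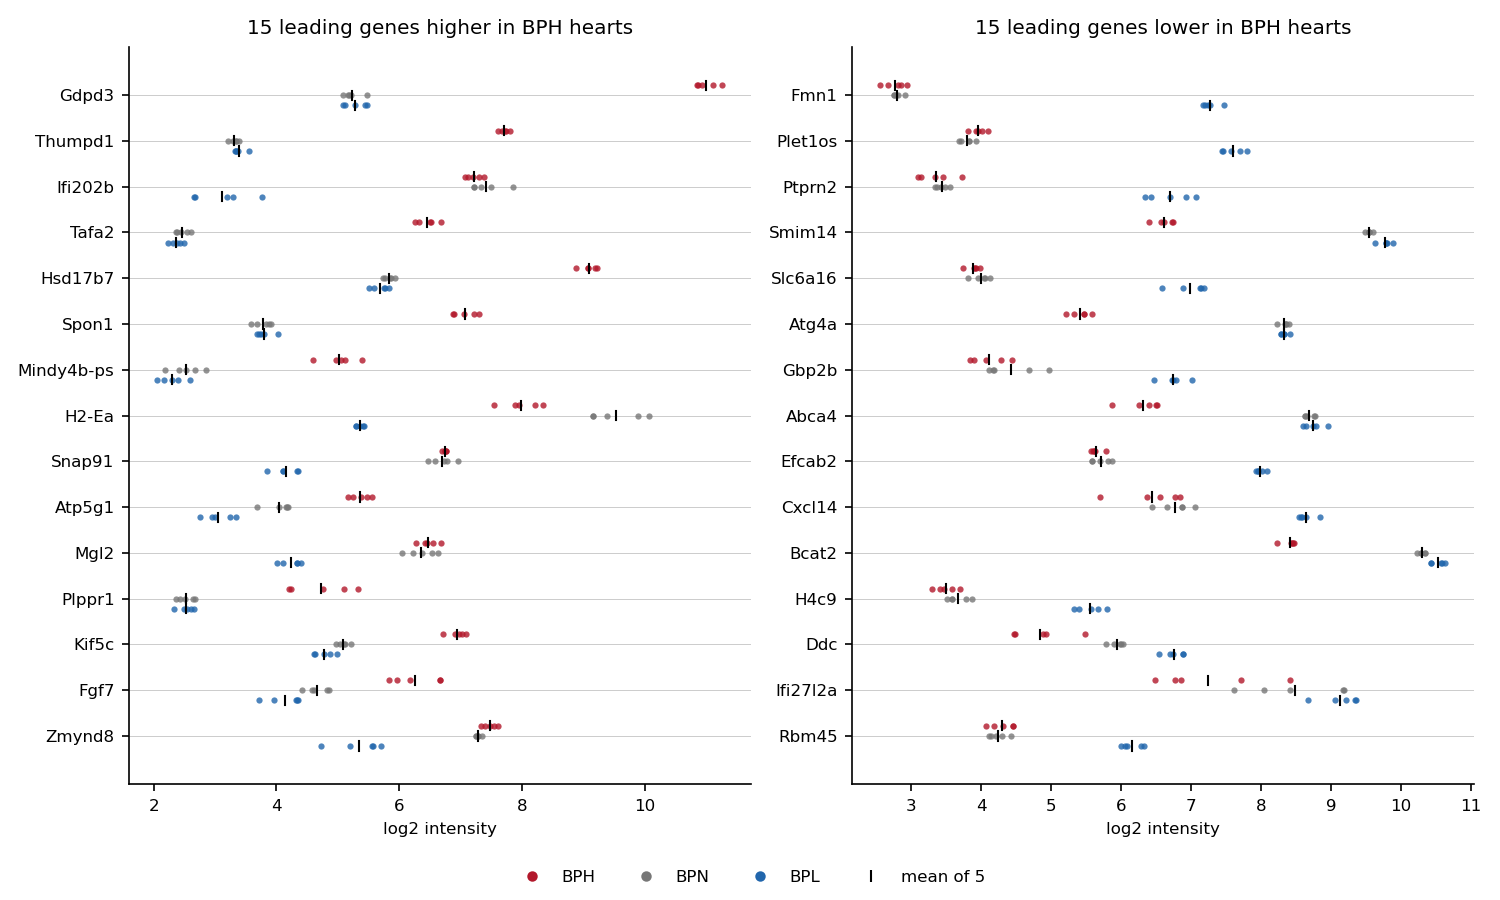
Log2 intensity (horizontal axis) of the 15 leading genes higher in BPH hearts (left) and the 15 lower (right), 1 point per array, 5 arrays per strain, with the mean as a black tick. BPN hearts lie with BPL for Gdpd3, Tafa2 and Atg4a and with BPH for Ifi202b, Snap91 and Fmn1.

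The position of BPN hearts split the large differences about evenly. Of the 299 probe sets called and at least 2-fold apart, the BPN mean was nearer to BPH at 156 and nearer to BPL at 143. For those higher in BPH the counts were 87 and 75, and for those lower in BPH 69 and 68. The comparisons with BPN share arrays with BPH minus BPL. On their own they called 2695 probe sets for BPH minus BPN (7.02%) and 3586 for BPL minus BPN (9.34%).

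Many of the large heart differences were measured again in arrays of other organs that the choice had not used. The same probe sets were read there, and whether sequence variants between the strains lie under them was not tested. Of the 162 probe sets at least 2-fold higher in BPH hearts, 87 (53.7%) were called higher in BPH kidney, 68 (42.0%) in liver and 91 (56.2%) in aorta, where 3.14%, 2.68% and 5.67% of all probe sets were called that way. They made up 7.21%, 6.61% and 4.18% of each organ's higher calls. Of the 137 at least 2-fold lower, 65 (47.4%), 62 (45.3%) and 79 (57.7%) were called lower, against 3.19%, 3.09% and 5.36% of all probe sets. These were 5.31%, 5.23% and 3.84% of the organs' lower calls. Across both directions, 88 of 299 were called the same way in all 3 other organs and 83 in none. The share of all probe sets with either pattern was not computed. The opposite call was rarer than the same call. Of the 162 it was made at 9 in kidney, 5 in liver and 7 in aorta. There 3.19%, 3.09% and 5.36% of all probe sets were called lower. Of the 137 it was made at 6, 1 and 7, where 3.14%, 2.68% and 5.67% of all probe sets were called higher. Whether the organs came from the same mice is not given in the labels. The aorta groups hold 9 BPH and 9 BPL arrays, although the design text speaks of 5 mice per strain. Whether some of those arrays share a mouse is not given either.

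The leading genes fell on both sides of that division. Gdpd3, Thumpd1, Ifi202b, H2-Ea and Zmynd8 were called higher in BPH in all 4 organs, as were Atp5g1 and Plppr1, and Smim14, Atg4a, Bcat2, H4c9 and Rbm45 were called lower in all 4. Each gene stands here for the single probe set that named it. The other probe set of Atp5g1 differed in heart by -0.09, not called, and opposed probe sets of Zmynd8 and Smim14 are given below. Atg4a differed by -3.26 in kidney, -3.53 in liver and -2.50 in aorta. Tafa2, by contrast, differed by 0.09 in kidney, -0.04 in liver and 0.30 in aorta, none called. The strain difference of Tafa2 in heart was larger than in kidney by 4.0 ± 0.15 SE and than in liver by 4.13 ± 0.15 SE (interaction fit, adjusted p = 5.0e-24 and 8.8e-25). For Fmn1 the interaction was -4.58 ± 0.17 SE against kidney and -4.97 ± 0.16 SE against liver. Hsd17b7 differed by -0.29 in kidney and -0.40 in aorta, both called and opposite to the heart, and its interactions were 3.70 ± 0.11 SE and 3.66 ± 0.11 SE. Snap91 was lower in BPH kidney (-1.17, called), with an interaction of 3.77 ± 0.14 SE. Fgf7 differed by 0.04, 0.08 and 0.01 in kidney, liver and aorta, none called. Of the 15 leading genes on each side, the heart difference was unlike both kidney and liver for 11 higher and 9 lower genes, and unlike neither for 2 and 2.

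**Figure D2:**
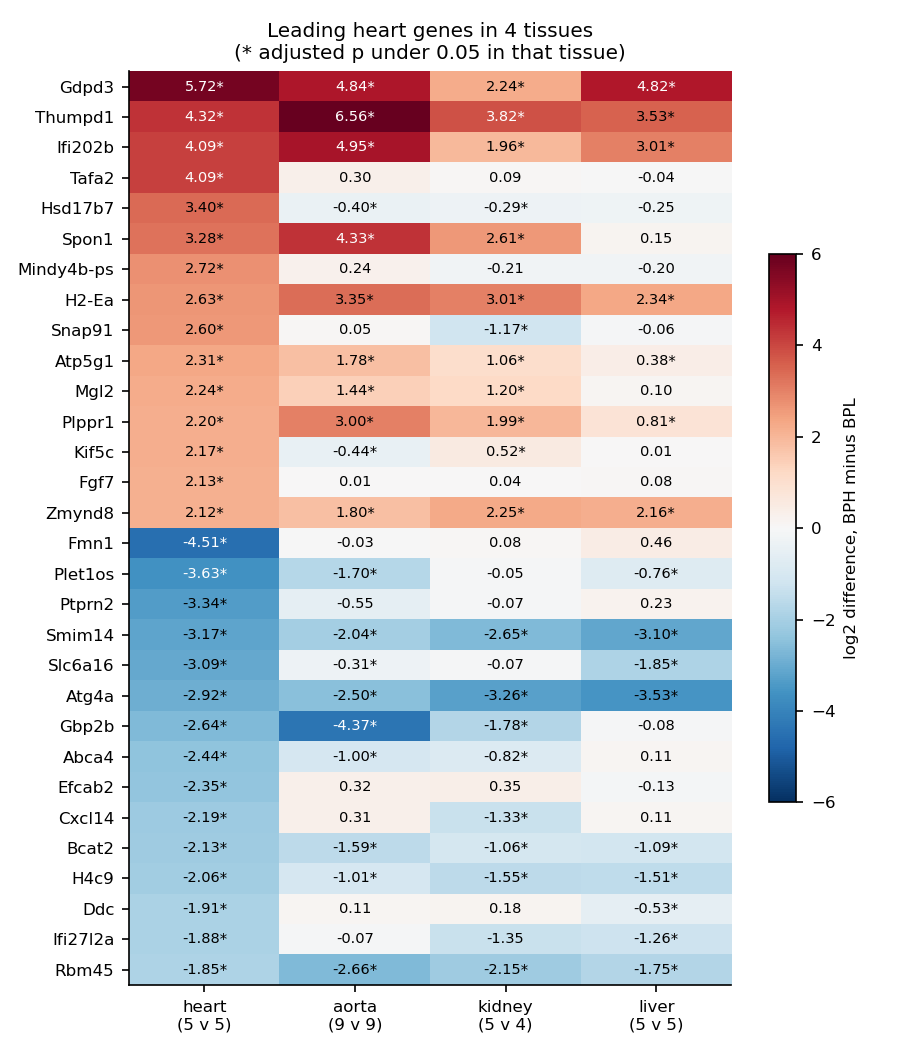
Log2 difference BPH minus BPL (colour and number) of the 30 leading heart genes in heart, aorta, kidney and liver, with an asterisk where that organ's own test had an adjusted p under 0.05. Gdpd3, Atg4a and Rbm45 differ in all 4 organs, whereas Tafa2, Fgf7 and Fmn1 are called in the heart and not in the other 3.

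Over all probe sets, the strain difference was unlike in heart and kidney for 2096 (5.46%) and unlike in heart and liver for 2337 (6.09%). The genes at the top of those tests also included 3 whose heart difference was small. Tm4sf5, a tetraspanin-like membrane protein, differed by -0.51 ± 0.09 SE in heart and by -4.41 in kidney. Itih5, a hyaluronan-binding matrix protein, differed by 0.45 ± 0.07 SE in heart and -3.82 in liver. Myom2, a myomesin of the M band, differed by 0.24 ± 0.06 SE in heart and -3.63 in liver; its heart call ended when any of 5 arrays was left out (adjusted p up to 0.066).

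The classical genes of cardiac load gave a divided picture. Of 22 measured members of the load and fetal program list, 5 rose in BPH and 2 fell (31.8% called, beside 15.4% of named genes above the median level and 10.4% of all; median difference 0.15 beside 0.00 to 2 decimals). Nppa, the atrial natriuretic peptide, read 13.61, 13.25, 13.64, 13.26 and 13.41 in BPH and 13.38, 12.57, 13.50, 13.44 and 13.50 in BPL. The strains overlapped, and BPL array 2, with low atrial markers, was the lowest. The difference was 0.16 ± 0.14 SE (adjusted p = 0.612), and -0.02 without that array. With the adipocyte level described below as a covariate, which was also low in BPL array 2, it was 0.61 ± 0.15 SE and called (adjusted p = 0.0269). Nppb, the B-type peptide, read 11.87, 11.39, 12.09, 11.70 and 11.45 in BPH and 10.94, 11.34, 11.31, 11.31 and 11.64 in BPL, 0.39 ± 0.13 SE apart (adjusted p = 0.0696), with BPN higher than both at 12.05 ± 0.10 (SD, n = 5). The adult myosin heavy chain Myh6 differed by -0.0018 ± 0.045 SE, the fetal Myh7 by 0.34 ± 0.11 SE and skeletal actin Acta1 by -0.28 ± 0.09 SE, none called (adjusted p = 0.992, 0.0736 and 0.0563). Nppb was called without BPH array 2, BPH array 5 or BPL array 5 (adjusted p = 0.0313, 0.0444 and 0.0265), Myh7 without BPH array 5 or BPL array 5 (0.0463 and 0.00717) and Acta1 without BPH array 3 or BPL array 1 (0.00742 and 0.0274). A p that misses the threshold does not show the strains alike.

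The members that were called included 3 genes known to respond to stretch or calcium signals. Whether such signals differed between these hearts was not tested. Ankrd1, the titin-associated cardiac ankyrin repeat protein, read 13.46, 13.13, 13.40, 13.35 and 13.24 in BPH and 12.47, 12.51, 12.65, 12.37 and 12.63 in BPL. Every BPH array was above every BPL array, at 0.79 ± 0.08 SE or 1.73-fold (adjusted p = 1.10e-06), and BPN was lowest at 12.08 ± 0.11 (SD, n = 5). Rcan1, an inhibitor of calcineurin that calcineurin itself induces, read 10.05, 9.86, 10.24, 9.73 and 9.53 against 8.94, 9.22, 8.98, 9.20 and 9.40, again with no overlap (0.73 ± 0.12 SE, adjusted p = 0.000408). Ccn2, the connective tissue growth factor, was 9.38 ± 0.32 in BPH and 8.69 ± 0.24 in BPL (SD, n = 5 each; 0.68 ± 0.14 SE, adjusted p = 0.00344), but BPN measured 9.41 ± 0.17. Xirp2, an actin-binding protein of the intercalated disc, and the transcription factor Mef2c rose by 0.49 ± 0.07 SE and 0.36 ± 0.06 SE. Hand2 fell by 0.38. Acta2, smooth muscle actin, read 5.33, 4.95, 5.16, 4.98 and 4.96 in BPH against 6.89, 6.81, 6.70, 7.01 and 6.87 in BPL, a difference of -1.78 ± 0.10 SE (adjusted p = 4.87e-10). Acta2 is also a member of the smooth muscle and pericyte list below, and which cells gave its difference was not tested. Under the estimate of spread shared by 67 arrays, 3 members rose, and with only probe sets above the median level tested 9 did.

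**Figure D3:**
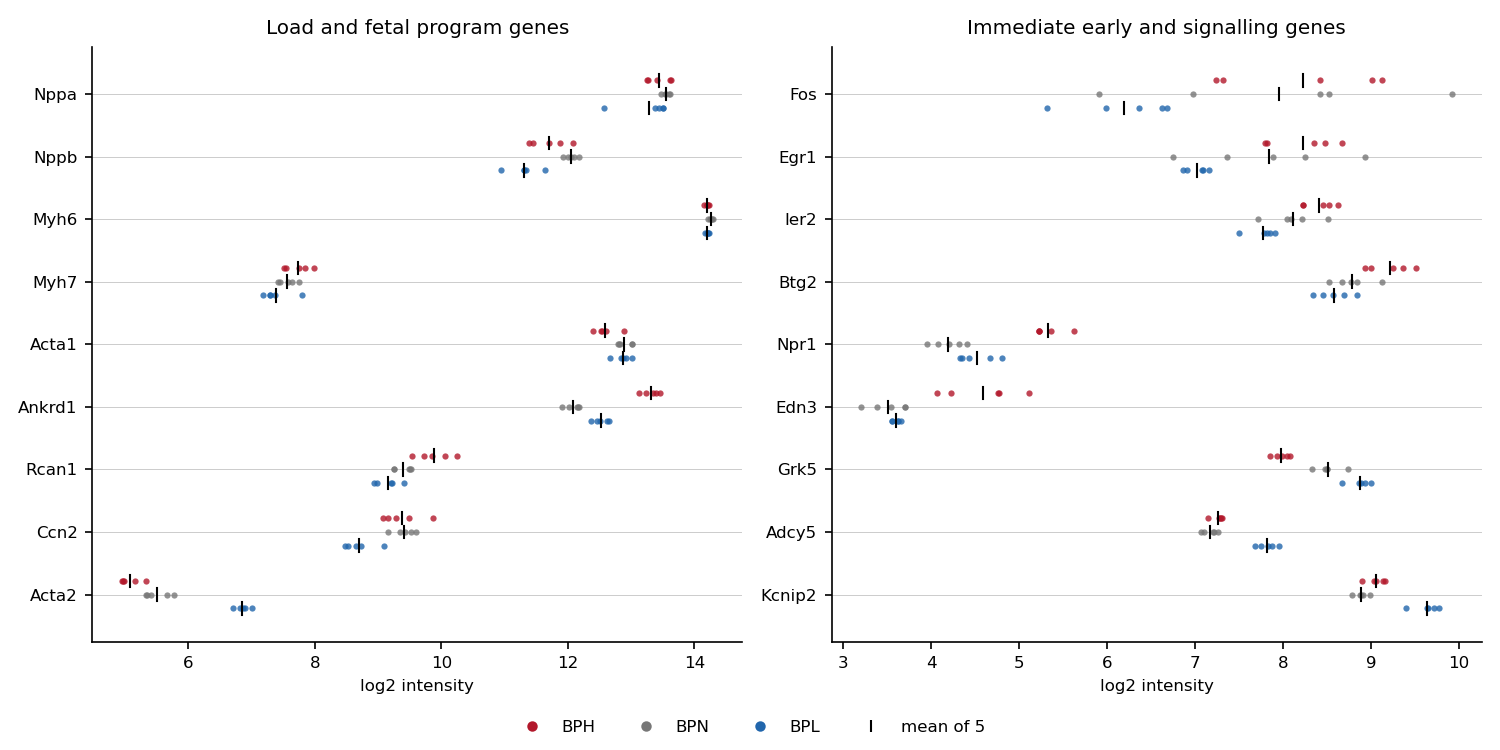
Log2 intensity (horizontal axis) of load and fetal program genes (left) and of immediate early, natriuretic, adrenergic and channel genes (right) in heart, 1 point per array, 5 arrays per strain, mean as a black tick. Nppa, Nppb and Myh6 overlap between BPH and BPL, while Ankrd1, Rcan1, Npr1 and Grk5 do not.

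Of 24 measured sarcomere and Z-disc genes 5 rose in BPH and none fell (20.8% called beside 15.4% of genes above the median level), with a median of 0.03, and the 5 were proteins of the Z disc, the M band or actin binding. Synpo2l, a Z-disc protein, was 7.79, 7.46, 7.77, 7.59 and 7.42 in BPH and 6.42, 6.60, 6.67, 6.55 and 6.64 in BPL (1.03 ± 0.09 SE, adjusted p = 5.32e-07). Myom1, which crosslinks myosin at the M band, rose by 0.41 ± 0.05 SE, the stretch sensor Csrp3 by 0.36 ± 0.04 SE and the actin-binding Nexn by 0.32 ± 0.06 SE on 1 probe set, with 0.02 ± 0.06 SE on its other, not called. The fifth was Myom2. The count was 3 with the spread shared by 67 arrays and 8 with a pseudocount of 16.

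Of 25 measured members of the channel and conduction list 7 were lower in BPH, 1 was higher and 17 were not called (32% called beside 15.4% of genes above the median level; median -0.09). Kcnip2, the subunit that gives the fast transient outward potassium current its size, read 9.05, 8.89, 9.16, 9.03 and 9.13 in BPH and 9.40, 9.72, 9.64, 9.63 and 9.76 in BPL. The groups did not overlap, the difference was -0.58 ± 0.07 SE (adjusted p = 2.26e-05), and BPN was 8.88 ± 0.07 (SD, n = 5), with BPH. Kcnd2, a pore subunit of that current, fell by 0.22, and Kcnh2 and Kcnj2, of the repolarising potassium currents, by 0.26 and 0.36. The calcium channel pore genes Cacna1c, Cacna1g and Cacna1h fell by 0.46, 0.36 and 0.29. Kcnj2 lost its call when any of 7 arrays was left out (adjusted p up to 0.0841). Scn4b, a sodium channel beta subunit, was the exception, at 7.26 ± 0.23 in BPH, 6.26 ± 0.18 in BPL and 7.03 ± 0.16 in BPN (SD, n = 5 each; 1.00 ± 0.11 SE, adjusted p = 5.22e-06). With the spread shared by 67 arrays 2 of the 7 lower calls were left, and 4 with the adipocyte level described below as a covariate. Of 16 calcium handling genes 2 were higher and 1 lower (18.8% called). The largest of the 3 was the store protein Casq2 at 0.24 ± 0.05 SE, whose call ended with the spread shared by 67 arrays (adjusted p = 0.408) and with the covariate (adjusted p = 0.226). The other calls, Jph2 and Hrc, ended in both settings too and when any of 13 arrays was left out. The pump Atp2a2 and the release channel Ryr2 differed by -0.05 ± 0.04 SE and -0.08 ± 0.07 SE, not called.

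Of 27 measured genes of fatty acid use, 10 were lower in BPH, none higher and 17 not called (37% called beside 15.4% of genes above the median level, where all 27 lie), and the median of the list was -0.05. Angptl4, a secreted lipase inhibitor induced by fatty acids, read 6.78, 6.25, 6.27, 5.88 and 5.88 in BPH and 7.22, 7.96, 7.51, 8.12 and 8.20 in BPL. No BPH array reached a BPL array, and the difference was -1.59 ± 0.26 SE, 3.01-fold (adjusted p = 0.000389), with BPN at 6.62 ± 0.61 (SD, n = 5). Ucp3, the muscle uncoupling protein, read 7.61, 7.31, 7.45, 7.19 and 7.01 against 7.88, 8.60, 8.24, 8.57 and 8.56 (-1.05 ± 0.14 SE, adjusted p = 5.04e-05), and BPN lay with BPH at 7.37 ± 0.20. Ppara, the nuclear receptor that drives fatty acid oxidation genes, read 7.98, 8.13, 8.24, 8.18 and 7.95 against 8.56, 8.47, 8.42, 8.42 and 8.55 (-0.39 ± 0.07 SE, adjusted p = 0.000976); BPN was 8.63 ± 0.11. Its other 2 probe sets were also called. Its coactivator Ppargc1b fell by 0.37, the acyl-CoA thioesterase Acot1 by 0.35, the carnitine transferase Cpt2 by 0.28, and Plin5, Mlycd and Acaa2 by 0.23, 0.22 and 0.18. Pdk4, a kinase that inhibits pyruvate dehydrogenase, fell by 0.46 (adjusted p = 0.0279) and lost its call when any of 5 arrays was left out. The transporter Cd36, the carnitine transferase Cpt1b and the coactivator Ppargc1a differed by 0.04, -0.03 and -0.01, not called. Of the 27, 6 stayed lower without BPL array 2 or without BPL array 4, and 2 with the spread shared by 67 arrays.

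Smaller shares were called among the fuel genes outside that list. Of 21 glucose use genes 2 were higher and 1 lower (14.3% called beside 15.4% of genes above the median level). Pdk2, another pyruvate dehydrogenase kinase, rose by 0.55 ± 0.06 SE, Eno3 by 0.18 ± 0.05 SE, and the monocarboxylate carrier Slc16a1 fell by 0.31. Of 31 mitochondrial energy genes 1 was called (3.23%), Ndufa9 at -0.16 ± 0.05 SE. Eno3 and Ndufa9 lost their calls when any of 5 or 6 arrays was left out.

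Adipocyte markers had the lowest median difference of the 28 lists, -1.16. Of 10 measured, 8 were called, each of them lower in BPH. Ucp1, the uncoupling protein of brown fat, read 4.36, 4.29, 7.62, 3.84 and 4.61 in BPH and 10.16, 5.12, 10.26, 10.68 and 8.29 in BPL. BPH array 3 was high for its strain and BPL array 2 low for its strain, so the strains overlapped, and the difference was -3.96 ± 0.96 SE (adjusted p = 0.0133). Adipoq, the adipocyte hormone adiponectin, read 3.42, 3.52, 8.40, 4.08 and 7.30 against 9.45, 6.55, 9.57, 9.83 and 8.74, -3.48 ± 0.92 SE (adjusted p = 0.0221), and lost its call when any of 6 arrays was left out (adjusted p up to 0.0649). Pck1, Plin1, Cidec, Cidea, Pparg and Lipe fell by 2.55, 1.67, 1.48, 0.85, 0.58 and 0.54, while Fabp4, which vessels also express, and Lep differed by -0.17 and -0.09, not called. The mean deviation of the list was -1.08, -1.13, 0.31, -1.11 and -0.65 in BPH and 1.19, -0.49, 1.23, 1.48 and 0.61 in BPL, and the summed intensity ran from 3168 to 4285 in BPH and from 3442 to 7831 in BPL. In bulk tissue, fewer cells of a type and less RNA per cell cannot be told apart.

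Angptl4 and Ucp3, the fatty acid genes with the largest differences, are given here for the 2 arrays whose adipocyte level went against their strain. These are single arrays, and what part the adipocyte level had in the list's differences was not tested with them. BPL array 2, with the lowest adipocyte level of its strain, had Angptl4 at 7.96 and Ucp3 at 8.60, within the range of the other BPL hearts or above it. BPH array 3, with the highest of its strain, had Angptl4 at 6.27 and Ucp3 at 7.45. With the level as a covariate in the fit, an alternative chosen after the data were seen, Angptl4 differed by -1.44 ± 0.38 SE (adjusted p = 0.042) and Ucp3 by -1.19 ± 0.21 SE (adjusted p = 0.00187). These were the 2 members of the 27 called there, beside 10 called without the covariate. Ppara differed by -0.38 ± 0.10 SE (adjusted p = 0.0521), and the other differences kept their direction with wider errors. All 8 adipocyte calls ended under that fit, whose covariate they define.

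**Figure D4:**
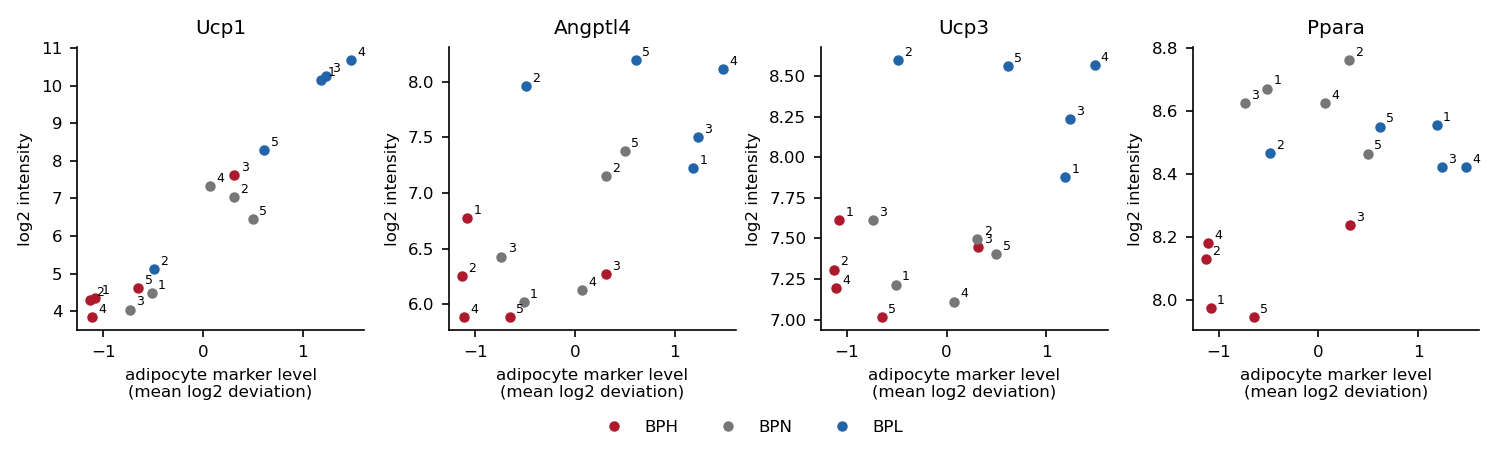
Log2 intensity of Ucp1, Angptl4, Ucp3 and Ppara (vertical axes) against the mean log2 deviation of the adipocyte marker list (horizontal axis) in the 15 heart arrays, numbered by replicate within strain. The level of BPL array 2 (-0.49) is the lowest of its strain and that of BPH array 3 (0.31) the highest of its strain; Ucp1 is itself a member of the list.

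The adrenergic and cholinergic list held 6 of 23 measured members lower and 2 higher (34.8% called; median 0.00 to 2 decimals). Grk5, the kinase that phosphorylates and desensitises beta receptors, read 8.04, 7.93, 8.07, 7.99 and 7.85 in BPH and 8.88, 9.0, 8.67, 8.86 and 8.93 in BPL, with BPN between them at 8.51 ± 0.14 (SD, n = 5). The difference was -0.89 ± 0.08 SE (adjusted p = 2.45e-07), and the gene's other probe set was called too. Adcy5, a main adenylyl cyclase of heart muscle, fell by 0.56 (7.26 ± 0.07 against 7.81 ± 0.11, SD, n = 5 each) and the cyclic AMP phosphodiesterase Pde4d by 0.44. The other probe sets of Pde4d differed by -0.13 and -0.21, not called. Ddc is described above, and Npy, a transmitter of sympathetic nerves, and Maob fell by 0.39 and 0.31. Maoa and the phosphodiesterase Pde3a rose by 0.33 and 0.22. The muscarinic receptor Chrm2 differed by -0.03 ± 0.09 SE, not called. The heart difference of Grk5 was unlike those of kidney and liver (interaction -0.83 ± 0.13 SE and -0.97 ± 0.13 SE, adjusted p = 1.4e-05 and 2.6e-07).

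Of 27 genes of the natriuretic, endothelin and nitric oxide list 7 were higher in BPH, none lower and 20 not called (25.9% called beside 15.4% of genes above the median level; median 0.09). Npr1, the guanylyl cyclase receptor of the natriuretic peptides, read 5.22, 5.37, 5.22, 5.62 and 5.23 in BPH and 4.43, 4.80, 4.67, 4.32 and 4.34 in BPL. The groups stood apart by 0.82 ± 0.11 SE (adjusted p = 5.04e-05), BPN was lower at 4.19 ± 0.18 (SD, n = 5), and Npr1 was also called higher in BPH kidney (0.63), liver (0.81) and aorta (2.28). The heart difference was not shown to be unlike those of kidney and liver (interaction 0.19 ± 0.18 SE and 0.01 ± 0.17 SE). Prkg1, the cyclic GMP kinase below that receptor, rose by 0.47 ± 0.06 SE, and the phosphodiesterase Pde1c by 0.28. Mme, neprilysin, which degrades natriuretic peptides, rose by 0.69 ± 0.12 SE (adjusted p = 0.000731). Edn3, an endothelin, read 4.76, 4.77, 5.11, 4.22 and 4.06 against 3.62, 3.65, 3.55, 3.56 and 3.63 (0.98 ± 0.15 SE, adjusted p = 0.000261), and the converting enzyme Ece1 rose by 0.26. Ddah1, which clears an inhibitor of nitric oxide synthase, rose by 0.51 ± 0.06 SE. The clearance receptor Npr3 and the activating protease Corin differed by -0.03 ± 0.14 SE and 0.04 ± 0.06 SE, and Nos3 and Edn1 by -0.05 and 0.17, none called. With the spread shared by 67 arrays 4 of the list were higher.

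The renin-angiotensin list had 1 of 16 higher and 1 lower (12.5% called). Agt, the precursor, differed by -0.17 ± 0.13 SE, Ace by -0.22 ± 0.07 SE and the receptor Agtr1a by 0.08 ± 0.08 SE, none called (adjusted p = 0.55, 0.08 and 0.68). Cma1, a mast cell chymase that can make angiotensin II, rose by 0.60 ± 0.09 SE (adjusted p = 0.000301). Enpep, the aminopeptidase that degrades it, fell by 0.46 and lost its call when any of 3 arrays was left out (adjusted p up to 0.0579).

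Among 28 oxidant and antioxidant genes 5 were higher and 2 lower (25% called beside 15.4% of genes above the median level). Prdx1, a peroxide-reducing thiol enzyme, read 9.03, 8.94, 9.10, 8.91 and 8.77 in BPH and 7.82, 7.97, 7.63, 7.95 and 7.85 in BPL, with BPN with BPL at 7.79 ± 0.06 (SD, n = 5). The difference of 1.11 ± 0.07 SE (adjusted p = 6.90e-09) was matched by 0.89 in kidney, 1.07 in liver and 0.57 in aorta, each called. Srxn1, which reactivates peroxiredoxins, rose by 0.64 ± 0.09 SE, and Cyba and Cybb, the membrane subunits of the phagocyte NADPH oxidase, by 0.58 ± 0.08 SE and 0.53 ± 0.09 SE. Gpx1 rose by 0.31, while the extracellular superoxide dismutase Sod3 fell by 0.31 and the metallothionein Mt2 by 0.69. Sod2, the mitochondrial superoxide dismutase, differed by 0.03 ± 0.05 SE (adjusted p = 0.812), at 9.77 ± 0.06 in BPH and 9.74 ± 0.09 in BPL beside 10.83 ± 0.03 in BPN (SD, n = 5 each). On its other probe set it was called lower, at -0.25 ± 0.05 SE (adjusted p = 0.00472).

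Of 40 matrix genes 5 rose and 2 fell (median 0.04), and the 17.5% called lay near the 15.4% of genes above the median level. The main fibrillar collagens were not among the called genes. Col1a1 differed by 0.25 ± 0.14 SE, Col3a1 by 0.23 ± 0.11 SE and periostin, Postn, by 0.37 ± 0.15 SE (adjusted p = 0.35, 0.26 and 0.16), and Postn was called without BPN array 2 (adjusted p = 0.00712). Timp4, the metalloproteinase inhibitor of the heart, was 6.95 ± 0.15 in BPH and 6.02 ± 0.17 in BPL (SD, n = 5 each; 0.93 ± 0.11 SE, adjusted p = 1.44e-05). Mmp3, stromelysin, rose by 0.81 ± 0.11 SE over BPL, and BPN lay far below both at 3.01 ± 0.14. Sparc, a collagen-binding matricellular protein, rose by 0.57 ± 0.09 SE and the collagen Col8a1 by 0.55 ± 0.08 SE. Emilin1, an elastic fibre protein, fell by 0.65 (adjusted p = 1.63e-06). The other lower member, Spon1, is counted here by its probe set of highest mean and was higher on another.

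Of 21 heat shock and protein folding genes 5 were higher and 1 lower (28.6% called beside 15.4% of genes above the median level; median 0.18), and 4 to 7 were higher when 1 array was left out. Hspb6, a small heat shock protein of muscle, read 13.20, 13.26, 13.31, 13.22 and 13.20 in BPH and 12.53, 12.64, 12.55, 12.64 and 12.62 in BPL (0.64 ± 0.05 SE, adjusted p = 7.01e-08). Hsp90aa1, Xbp1 and Bag3 rose by 0.43, 0.41 and 0.31, Hspb7 by 0.19, and the mitochondrial chaperonin Hspd1 fell by 0.22. Of 20 clock genes 1 was called (5%), Nr1d1 at -0.41 ± 0.10 SE.

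Immune lists were mixed. Of 21 antigen presentation genes 2 were higher and none lower (9.52% called), a share below the 15.4% of genes above the median level. They were H2-Ea and its class II chaperone Cd74 (0.72 ± 0.16 SE, adjusted p = 0.00795), while H2-Ab1 differed by 0.47 ± 0.19 SE, not called. Of 23 interferon response genes 3 were higher and 6 lower (39.1% called). The guanylate-binding proteins parted within their cluster on chromosome 3: Gbp2b fell by 2.64 and Gbp3 by 0.48, and Gbp2 rose by 0.51 ± 0.10 SE. Ifi27, Ifit1, Usp18 and Oas2 fell by 0.65, 0.52, 0.51 and 0.49. With the adipocyte level as a covariate Ifi27 differed by -0.09 ± 0.11 SE (adjusted p = 0.741) and the call of Usp18 ended (adjusted p = 0.156), while Ifit1 and Oas2 stayed called at -0.77 and -0.79. Macrophage markers were higher in 3 of 18 (Cd163 by 0.49 ± 0.10 SE, Cx3cr1 by 0.41 ± 0.12 SE, F13a1 by 0.21 ± 0.06 SE), a share of 16.7% that lay near the 15.4% of genes above the median level, and the calls of Cx3cr1 and F13a1 ended when any of 9 or 5 arrays was left out. The other probe sets of Cx3cr1 and F13a1 differed by 0.35 and -0.04, not called. Lymphocyte markers were called in 1 of 13 (7.69%), Gzma at 0.78 ± 0.13 SE, and the median of that list was 0.45 with all arrays but 0.04 without BPH array 5.

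Immediate early genes, which code for transcription factors and feedback regulators made within minutes of a stimulus, were higher in 6 of 22 and lower in 1 (31.8% called; median 0.21). Fos read 7.31, 7.24, 8.42, 9.12 and 9.01 in BPH and 5.98, 6.63, 6.36, 5.31 and 6.68 in BPL. The groups did not overlap but the spread was wide, with a difference of 2.03 ± 0.58 SE (adjusted p = 0.0346) that lost its call when any of 6 arrays was left out (adjusted p up to 0.0884). Fos in BPN was 7.95 ± 1.55 (SD, n = 5). Egr1 read 7.82, 7.79, 8.47, 8.35 and 8.67 against 6.86, 7.15, 7.09, 6.90 and 7.08 (1.20 ± 0.29 SE, adjusted p = 0.0117), again apart. Ier2 rose by 0.64 ± 0.12 SE, Btg2 by 0.63 ± 0.13 SE, Junb by 0.63 ± 0.14 SE and Ccn1 by 0.41 ± 0.09 SE, and Klf4 fell by 0.56. Jun, Nr4a1 and Dusp1 differed by 0.08, 0.39 and 0.20, not called. In BPH the mean deviation of the list was -0.07 to 0.27 and in BPL -0.28 to -0.10. With the adipocyte level as a covariate 3 were higher.

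Because several of these genes moved together, their upstream sequence is shown for the core of the cyclic AMP response element, TGACG, read on either strand (CGTCA on the other). The 250 bases before the start of transcription are from RefSeq, assembly GRCm38.p6, 5′ to 3′ in the sense of the gene, with the core in capitals. Fos lies on the plus strand at chr12:85473640-85473889, Btg2 on the minus strand at chr1:134079156-134079405 and Junb on the minus strand at chr8:84978749-84978998.
Fos: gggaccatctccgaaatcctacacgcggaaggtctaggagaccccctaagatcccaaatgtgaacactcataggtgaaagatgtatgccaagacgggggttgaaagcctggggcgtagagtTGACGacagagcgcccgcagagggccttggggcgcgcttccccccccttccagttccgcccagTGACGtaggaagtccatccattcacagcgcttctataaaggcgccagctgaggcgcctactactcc
Btg2: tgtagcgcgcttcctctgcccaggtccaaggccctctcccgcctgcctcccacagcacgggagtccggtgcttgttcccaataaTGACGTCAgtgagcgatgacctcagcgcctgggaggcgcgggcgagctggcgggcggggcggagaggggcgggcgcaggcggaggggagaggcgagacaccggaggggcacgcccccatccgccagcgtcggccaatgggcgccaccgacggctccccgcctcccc
Junb: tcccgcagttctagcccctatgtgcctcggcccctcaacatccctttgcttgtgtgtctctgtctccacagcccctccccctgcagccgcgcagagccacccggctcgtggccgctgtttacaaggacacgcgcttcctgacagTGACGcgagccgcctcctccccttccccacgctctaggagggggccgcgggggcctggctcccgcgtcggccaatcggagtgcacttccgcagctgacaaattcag
Fos holds 2 cores and Junb 1, and in Btg2 the cores of both strands overlap to form the full palindrome TGACGTCA, which 1.55% of all promoter windows hold. Dusp1, a member of the list that was not called, held the full palindrome too. The core was in 17.8% of 32851 windows of that length. It was in 4 of the 4 higher genes that had an entry used here and in 9 of the 14 other members of the list with one, so it does not separate the called members from the rest of the list. A match of these letters is a description and not a site.

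Markers of other cell types and regions differed in the share called, to be read beside 15.4% of genes above the median level. It was 10.5% for endothelial, 12.5% for fibroblast, 9.09% for atrial and 12.5% for nerve and Schwann markers. Smooth muscle and pericyte markers had 26.7%, ventricular markers 42.9% of 7 and red blood cell markers 50% of only 2 measured. Endothelial markers were higher in 2 of 19 (Robo4 by 0.49 ± 0.08 SE; Kdr by 0.23 ± 0.07 SE, a call that ended when any of 12 arrays was left out) and fibroblast markers in 1 of 16 (Dpt by 0.20, adjusted p = 0.0481, a call that ended when any of 11 arrays was left out), with 1 lower (Meox1, -0.43 ± 0.09 SE). Pecam1 and Tcf21, defining markers of those types, differed by 0.05 and -0.05, not called. Smooth muscle and pericyte markers were split, with Acta2, Myh11 and Cnn1 at -1.78, -0.57 and -0.53. Rgs5, a regulator of G proteins in pericytes, read 10.10, 10.20, 10.07, 10.14 and 10.16 in BPH against 8.95, 9.19, 9.0, 9.10 and 9.13 in BPL (1.06 ± 0.08 SE, adjusted p = 2.42e-08). The call of Cnn1 ended when any of 8 arrays was left out. With the adipocyte level as a covariate Cnn1 differed by -0.16 ± 0.18 SE and Myh11 by -0.48 ± 0.20 SE, neither called (adjusted p = 0.736 and 0.243), and Acta2 by -1.63 ± 0.14 SE, called. The smooth muscle list's mean deviation was -0.12 to -0.03 in BPH and -0.05 to 0.19 in BPL, and its part in the Acta2 difference was not tested. Atrial markers were called in 1 of 11 (Tbx5, -0.46 ± 0.10 SE), and the list's median was -0.10 with all arrays and -0.31 without BPL array 2. With the adipocyte level as a covariate that median turned to 0.61, Nppa and Kcnj3 were called higher (0.61 and 0.50) and Tbx5 was not called (-0.23, adjusted p = 0.402). Ventricular markers were called in 3 of 7 (Irx4 at 0.33, Kcnip2 at -0.58 and Hey2 at -0.31) and skeletal muscle markers in none of 11, where 1 had an unadjusted p under 0.05. The red cell gene Alas2 was 0.75 ± 0.16 SE higher. Of 8 nerve and Schwann cell markers 1 was called: Uchl1, a ubiquitin hydrolase of neurons, at 6.48 ± 0.10 in BPH and 4.64 ± 0.24 in BPL (SD, n = 5 each; 1.84 ± 0.10 SE, adjusted p = 3.12e-10), which was also higher in BPH kidney (2.04) and aorta (3.19).

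**Figure D5:**
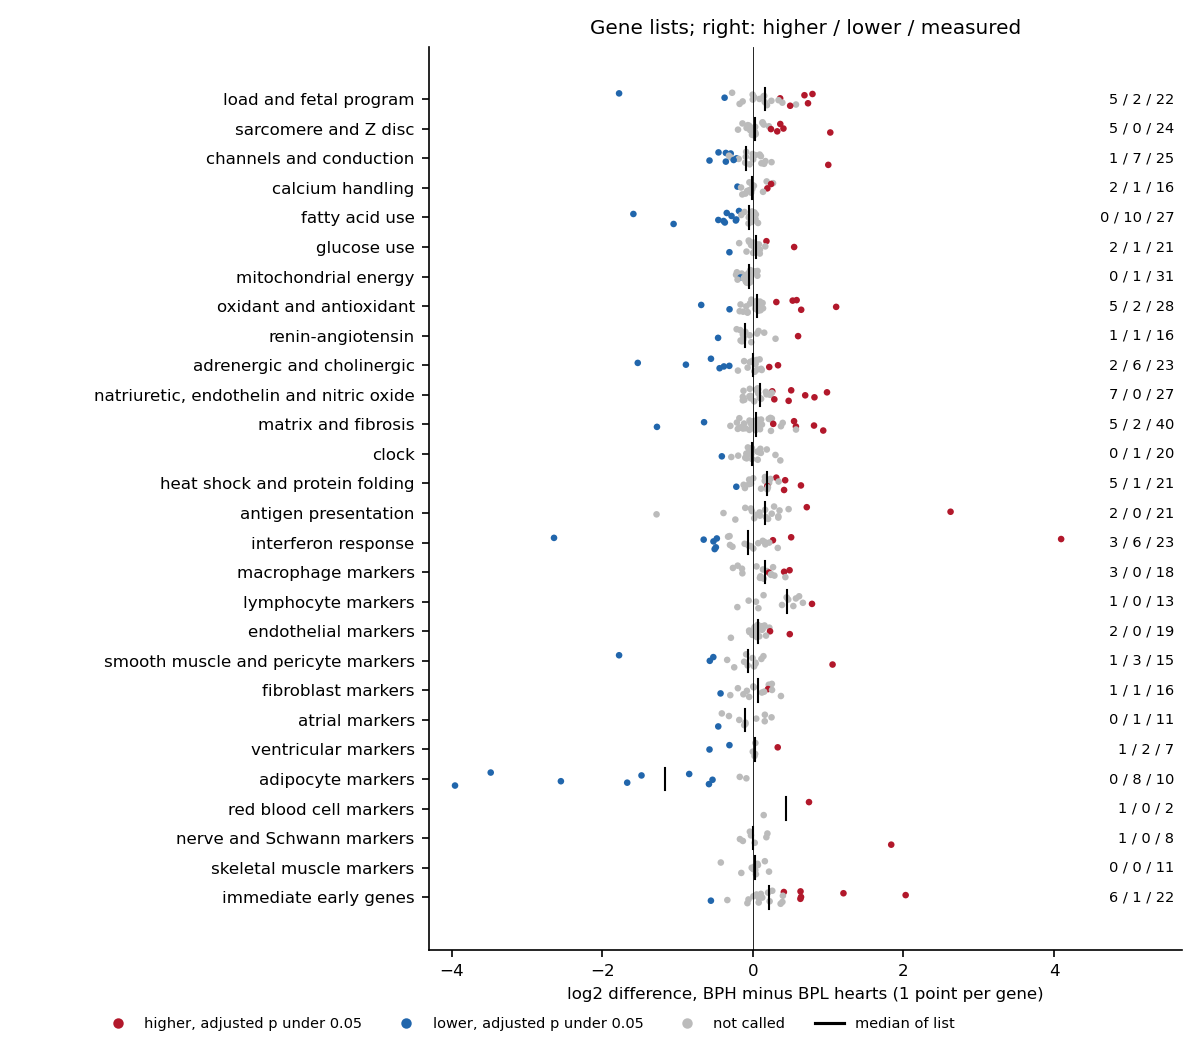
Log2 difference BPH minus BPL in heart (horizontal axis) of every measured member of 28 gene lists, 1 point per gene by its probe set of highest mean, coloured where called, with the list's median as a black line and the counts higher, lower and measured at the right. Called fatty acid and adipocyte genes lie on the lower side only, and called natriuretic, endothelin and nitric oxide genes on the higher side only.

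Smaller calls among the lists depended on single arrays or on the estimate of spread. When any of 3 to 11 arrays was left out, the calls of Cacna1h, Kcnd2, Acot1, Plin5, Acaa2, Gpx1, Pde3a, Ece1, Pde1c, Hspd1, Hspb7, Gbp3, Cidec and the fifth higher matrix gene, Loxl2 (0.27), ended too. With the spread shared by 67 arrays, the calls of Ppara, Ppargc1b, Cpt2, Mlycd, Mef2c, Xirp2, Csrp3, Cacna1g, Kcnh2, Slc16a1, Meox1, Ifi35, Mt2, Maob, Cma1, Mme, Nr1d1 and Bag3 ended, as did those of Cd74, Ifit1, Usp18, Cd163, Gzma, Robo4, Tbx5, Irx4, Cidea, Pparg, Lipe, Egr1, Klf4 and Ccn1. That fit changed only the estimated error and left each difference as it was, so no direction could turn there. With the adipocyte level as a covariate the calls of Nexn, Sod3, Npy, Gbp2, Hey2, Alas2 and Btg2 ended, and of the genes just named those of Ppargc1b, Cpt2, Mlycd, Kcnh2, Mt2, Maob, Nr1d1, Bag3, Meox1, Ifi35, Cd74, Robo4, Irx4, Klf4 and Ccn1 ended there as well, beside those given above.

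Called genes lay next to each other more often than genes not called, a description with no test. Of 18911 named genes placed in the RefSeq order, 1994 were called (10.5%). Of the called genes 29.4% had a called gene as a measured neighbour, against 18.4% of the genes not called. There were 216 runs of 2 called neighbours, 35 of 3, 6 of 4 and 5 of 5. A run on chromosome 7 held Sult1a1, Slx1b, Bola2, Coro1a and Gdpd3, the gene with the largest fold. Sult1a1, a sulfotransferase, rose by 0.40 ± 0.07 SE and Slx1b, a nuclease subunit, fell by 0.71. Coro1a, an actin regulator of leukocytes, read 7.58, 7.43, 7.50, 7.27 and 8.92 in BPH and 6.92 to 7.08 in BPL; the BPH array with high lymphocyte markers held the highest value, and the call (adjusted p = 0.0435) ended when any of 9 other arrays was left out. Without that array it stayed called. The other run on chromosome 7 held Homer2, a scaffold at calcium release sites, at 9.78 ± 0.10 in BPH and 8.67 ± 0.09 in BPL (SD, n = 5 each; 1.11 ± 0.06 SE, adjusted p = 6.28e-10), with 3110040N11Rik, Whamm, Btbd1 and Fsd2 at -0.89, -0.32, -0.20 and 0.18. On chromosome 11, Snap47, Jmjd4, Zfp867, Zkscan17 and 4933439C10Rik all rose, by 0.56, 0.39, 0.47, 0.29 and 0.78. On chromosome 4, Alg6, Efcab7 and Pgm1 rose by 0.65, 0.56 and 0.25, while Itgb3bp fell by 1.09 and Ror1 by 0.27. On chromosome 1, Uck2, Tmco1, Mgst3 and Lrrc52 rose by 0.30, 0.46, 0.18 and 0.58 and Aldh9a1 fell by 0.59. In these runs the calls of Uck2, Mgst3, Ror1 and Bola2 ended when any of 2, 13, 11 or 5 arrays was left out. Each gene of a run stands for its probe set of highest mean. A further probe set of Jmjd4, Zkscan17, Slx1b, Itgb3bp and Whamm differed by -0.07, -0.08, -0.05, -0.12 and -0.03, none called. A further probe set of Homer2 and of Tmco1 was called in the same direction (0.81 and 0.45).

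Probe sets of 1 gene did not always move together. Of 3958 genes with more than 1 probe set, 222 had at least 2 called, and in 22 of these they were called in opposite directions. Spon1, a secreted matrix protein, was called higher on 2 probe sets, by 3.28 ± 0.09 SE and 2.28 ± 0.09 SE. It differed by -1.27 ± 0.07 SE on another, whose BPH values were 8.37, 8.10, 8.22, 8.08 and 8.05 against 9.50, 9.43, 9.32, 9.34 and 9.60 in BPL. Smim14 differed by -3.17 ± 0.07 SE and 0.19 ± 0.05 SE, Zmynd8, a chromatin reader, by 2.12 ± 0.13 SE and -0.26 ± 0.07 SE, and Ivns1abp, an actin-binding kelch protein, by 0.85 ± 0.08 SE and -1.40 ± 0.11 SE. The other probe sets of Ivns1abp differed by 0.12 and 0.08, not called. For these genes a direction holds for a probe set and not for the gene, and what part of the transcript or the genome differed was not tested.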

How the data were processed

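The deposited intensity values, 1 per probe set and array, were made by the authors with RMA, per the submitters' processing notes; heart RNA was labelled as cRNA by reverse transcription and in vitro transcription, per the labels' protocols. Array, plate and scan batches were not given. Here values were set to log2 with a pseudocount of 0, and BPH, BPL and BPN hearts (15 arrays) were fitted with limma 3.58.1 in R 4.3.3 and tested over 38385 probe sets. The interaction fit used heart, kidney and liver arrays. In simulated data for the heart comparison, 50 of 38385 features were changed at each size. Of those changed by 0.25, 0.5, 1 and 2, 8%, 72%, 98% and 100% were called, with 4 false among 143 calls. The share changed was smaller than the 8.57% called in the hearts, so these rates need not hold for the hearts. For heart against kidney 20 of 147 were false, above the nominal rate. Symbols came from the platform annotation, and 65 probe sets with several symbols and 13842 with none were not named. Named genes were the 15 with the largest called difference on each side (no overlap of arrays, the higher strain above the median level), 24 fixed genes, up to 4 called members of each list, 4 interactions per organ, and members of the longest runs and of opposed probe sets; further list members were picked with their values in view. Adrb1 had no named probe set, and 1 item is not reported here. Members and lists were chosen with earlier results of these data known. The number of arrays limits the precision.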

Additional observations from a re-analysis of the deposited data

Results flagged for a closer look

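In 21 of 358 groups of 5 arrays, 1 array lay apart from the other 4 by more than Dixon's critical value of 0.71 of the group's range; chance gives about 1 in 20. The ratios were 0.785 for Thumpd1 (BPL 2 high), 0.755 for Efcab2 (BPH 1 high), 0.82 for Bcat2 (BPH 4 low), 0.865 for Nppa (BPL 2 low), 0.717 for Pdk2 (BPH 5 low), 0.853 for Cyba (BPL 1 low), 0.798 for Adcy5 (BPH 4 low) and 0.871 for Bag3 (BPH 3 high). Cma1 stood apart in both strains, with 0.809 (BPH 5 high) and 0.876 (BPL 4 low). They were 0.796 for Cx3cr1 (BPL 1 low), 0.752 for Cnn1 (BPL 2 low), 0.782 for Hey2 (BPL 1 low), 0.77 for Mgst3 (BPH 5 low), 0.726 for Whamm (BPH 2 low) and 0.814 for Sult1a1 (BPL 1 low).

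Some of these arrays stood apart in markers of another cell type or region too. Ucp1 in BPH 3 had a ratio of 0.796, at 7.62 against 3.84 to 4.61, and the skeletal muscle list was high in the same array (0.811). Coro1a in BPH 5 had 0.815 and the lymphocyte list 0.906 in that array. The atrial list in BPL 2 had 0.858, the array in which Nppa was low.

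The strain difference was unlike between organs for Tafa2 (4.0 against kidney, 4.13 against liver), Snap91 (3.77 against kidney), Fmn1 (-4.58 against kidney, -4.97 against liver), Tm4sf5 (3.90 against kidney), Itih5 (4.27 against liver) and Myom2 (3.87 against liver).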

How the results depend on the processing

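With the spread shared by all 67 arrays the calls were 1832 probe sets, 1008 higher and 824 lower, and the interactions 1044 against kidney and 1242 against liver; with the adipocyte level as a covariate, chosen after the data were seen, they were 1628, 944 and 684. With 1 probe set per gene 977 were lower and 165 at least 2-fold; with a pseudocount of 16, 173 were at least 2-fold and 3152 were called against kidney. Leaving out 1 array gave 2749 to 3302 calls, 1458 to 1768 higher, 1244 to 1535 lower, 273 to 305 at least 2-fold, 1821 to 2147 against kidney and 2047 to 2256 against liver. Heart and kidney arrays alone gave 2249, heart and liver alone 2160. Averaging a gene's probe sets turned Spon1 to 1.10, Smim14 to -0.94, Zmynd8 to 0.54 and Ivns1abp to -0.086 against the probe set of the other sign, and the covariate turned Ucp1, Adipoq and Plin1, which define it, to 0.14, 0.14 and 0.045. Of the single-gene values, 3723 kept their direction and side of the threshold, 301 lost and 22 gained a call, and 7 turned. After the strain mean of each probe set was subtracted, what was left in same-numbered BPH and BPL arrays correlated at -0.26 to 0.13, 2 of 5 above 0.1. The numbers were therefore not taken as pairs. The replicate block gave 3051 calls, 1612 higher, 1439 lower, 294 at least 2-fold, and 2094 and 2293 interactions. Detection calls were not used here, so low levels have no bound.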
